A study of Homo sapiens with 8 samples.

Results

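Translation initiation factors are the proteins that bring the ribosome to the start codon of an mRNA, and their genes carry symbols from EIF1 to EIF6. They were taken here as all symbols in the expression tables that begin with EIF and a digit from 1 to 6 and hold no hyphen, apart from EIF4A3, which is a core component of the exon junction complex. This gave 70 of the 17076 genes in the tables. Of these, 52 were placed on lists by the role of their protein, 17 were pseudogene entries, and EIF1AD, named for a domain like that of EIF1A, stood alone. RefSeq gives 53 of the 70 as protein coding.

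RNA-seq was performed on Huh7, an established human hepatocellular carcinoma line, in 4 groups of 2 libraries. UPF1, the helicase of nonsense-mediated mRNA decay (NMD), was depleted with an siRNA (siUPF1, compared with a scrambled siRNA, siControl) or overexpressed from a plasmid with a MYC tag (MYC-UPF1, compared with the vector carrying the tag alone, MYC). MYC in these group names is the epitope tag and not the MYC gene. The question was how the mRNAs of the initiation machinery stood when the level of UPF1 was lowered or raised in Huh7 cells. The time between transfection and harvest is not given in the sources used here, and transfected cells were not separated from others as far as these say. Nothing in the labels says that the libraries of a group came from separate cultures, so p-values measure only the spread between these libraries.

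As background, initiation starts when eIF2, carrying GTP and the initiator tRNA, joins the small ribosomal subunit together with eIF1, eIF1A, eIF5 and the large eIF3 complex. The cap-binding complex eIF4F, made of the cap-binding protein EIF4E, a scaffold of the EIF4G family and the helicase EIF4A, brings the mRNA, and the assembly scans to the start codon. After each round eIF2B reloads eIF2 with GTP, a step that is blocked when any of the eIF2 kinases phosphorylates the alpha subunit of eIF2, and EIF4E is held back by its binding proteins. UPF1 meets this machinery because NMD depends on translation.

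Many mRNAs of the translation machinery begin with a C followed by a run of C and T, the terminal oligopyrimidine (TOP) tract through which the mTOR pathway controls their translation. The RefSeq promoter table (GRCh38.p14, 250 bases before and 50 from each annotated start) held an entry for 44 of the 70 members. A C at the start followed by 4 or more C or T was found in 10 of these 44 (22.7%), against 809 of 11604 genes of the tables with an entry (6.97%). The letters CACGTG, which read the same on both strands and form the E-box, were found in 11 of 44 members (25%) and in 1431 of 11604 genes (12.3%). A selection of TOP-like starts is shown that covers 3 eIF3 subunits, 2 members of the cap-dependent helicase machinery and the gamma subunit of eIF2. Each runs from 10 bases before the start to 20 bases into the transcript, with the run of C and T in capitals.
EIF4B: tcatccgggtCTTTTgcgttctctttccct
EIF4A2: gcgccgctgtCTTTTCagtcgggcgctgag
EIF3D: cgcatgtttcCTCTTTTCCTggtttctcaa
EIF3F: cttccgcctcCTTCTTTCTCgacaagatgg
EIF3K: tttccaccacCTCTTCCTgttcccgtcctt
EIF2S3: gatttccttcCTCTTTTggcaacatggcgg
On GRCh38.p14 these windows lie at chr12:53006446-53006475 on the plus strand for EIF4B, chr3:186783567-186783596 (plus) for EIF4A2 and chr22:36529147-36529176 (minus) for EIF3D. The others are chr11:7987327-7987356 (plus) for EIF3F, chr19:38619178-38619207 (plus) for EIF3K and chrX:24054946-24054975 (plus) for EIF2S3. The remaining 4 such starts belonged to EIF2A, EIF2D, EIF3M and EIF2S3B. EIF2S3B is 94.8% identical to EIF2S3 and has nearly the same window, and both are counted among the 10. In EIF4E, the cap-binding protein, CACGTG began at position -225 relative to the start, and it is given in capitals within the window chr4:98929341-98929370 on the minus strand.
EIF4E: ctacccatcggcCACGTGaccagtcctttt
A match of letters is a description of the annotated window and does not show that a tract or a site is used in Huh7 cells.

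The level of each mRNA is given in FPKM, fragment counts scaled to transcript length and to library size, as deposited. FPKM is a share of each library, so fewer cells and less RNA per cell cannot be told apart. The 8 libraries summed to between 403902 and 455592 FPKM, and their read depth is unknown. Together the 70 members made up 0.723% to 0.862% of a library. The most abundant was EIF4A1, the helicase of eIF4F, with a mean of 444 FPKM over the 8 libraries (lowest 408, highest 498). It was followed by EIF5A, the hypusine-carrying factor that eases peptide bond formation, at 359 FPKM (308 to 399). EIF4G2, a scaffold that lacks the EIF4E-binding site, came next at 204 FPKM (185 to 219). These genes held the first 3 ranks in each of the 8 libraries and did not overlap with each other. EIF3B at 163 FPKM, EIF6 at 147, EIF4G1 at 146 and EIF4A2 at 145 overlapped, and their order changed from library to library.

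At the other end, the cap-binding protein EIF4E had a mean of only 4.4 FPKM (3.54 to 5.63), rank 47 of the 70 members. On this length-scaled measure EIF4G1, which it binds, was 26 to 45.3 times and the inhibitor EIF4EBP1 13.2 to 22.5 times as high in the same library, whereas EIF4ENIF1, the transporter that carries it into the nucleus, was close to it at 5 to 6.29 FPKM. EIF4E2, a cap-binding relative that does not bind EIF4G1 and is known as a repressor, stood at 46.7 FPKM, 8.68 to 13.7 times EIF4E. EIF4E3 was at 0.157 FPKM and EIF4EBP3 at 0.094 FPKM. ANKHD1-EIF4EBP3, the read-through gene that contains EIF4EBP3, was listed separately at 3.96 to 8.67 FPKM, so reads of the shared exons may have been counted there. An annotated near copy, EIF4EP2, had 4 differences in 654 bases from the EIF4E transcript and was listed at 2.8 FPKM, and reads of EIF4E may have been divided between the pair.

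Subunits of one complex were not at equal FPKM. Within eIF3 the means ran from 163 FPKM for EIF3B, a core subunit, and 122 for EIF3G through 69.8 for EIF3E to 9.66 for EIF3F, and EIF3B was 13.4 to 20.4 times EIF3F. The canonical GENCODE transcript of EIF3F has 6920 bases, against 3096 for EIF3B and 1103 for EIF3G. EIF3FP3, a pseudogene entry 97.5% identical to EIF3F, was listed at 4.21 FPKM. The part of transcript length and of shared reads in the low value of EIF3F was not tested. In eIF2, the beta subunit EIF2S2 was 4.22 to 4.75 times the alpha subunit EIF2S1. The 5 eIF2B subunits ran from 5.87 FPKM for EIF2B2 to 20.7 for EIF2B1. Among the eIF2 kinases, EIF2AK1, the heme-regulated kinase, was highest at 47.2 FPKM. EIF2AK3 (PERK, which responds to unfolded protein in the endoplasmic reticulum) was at 8.27, EIF2AK4 (GCN2, which responds to uncharged tRNA) at 3.2 and EIF2AK2 (PKR, which responds to double-stranded RNA) at 1.74. The ranges of these 4 kinases over the 8 libraries did not overlap. The order of the 10 most abundant members was the same after quantile normalization.

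UPF1 checked the labels. It was at 44.5 and 47.4 FPKM in siControl and at 20.7 and 21.9 FPKM in siUPF1, which in limma was a change of -1.07 on the log2 scale (standard error 0.09, adjusted p = 0.0308). The change stayed between -1.31 and -1.03 under other settings. The adjusted call was lost without an FPKM minimum (limma adjusted p = 0.193) and with replicate numbers as a block (0.0737). It was also lost with median centring (0.0616) and quantile normalization (0.0575). In MYC-UPF1, UPF1 was at 2835 and 2484 FPKM, against 45.1 and 57.4 FPKM in MYC. The markers of hepatocytes and Huh7 were all expressed, led by AFP and ALB, and the 8 of them summed to between 20148 and 23525 FPKM. Of 7 markers of other cell types, CD68 (2.95 to 3.84 FPKM) and PECAM1 (0.535 to 0.796 FPKM) were listed, and the other 5 were not analysed here. Some libraries stood apart. In siUPF1 replicate 2 the 10 most abundant genes took 15.4% of summed FPKM, against 20.8% to 21.5% in the other 3 libraries of that experiment. MYC replicate 1 correlated more closely across genes with MYC-UPF1 replicate 2 (0.9977) than with MYC replicate 2 (0.9961). Likewise siUPF1 replicate 1 correlated more closely with siControl replicates 1 (0.9945) and 2 (0.9953) than with siUPF1 replicate 2 (0.9942).

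After UPF1 depletion, most initiation factor mRNAs stayed close to their control level. EIF2B1, EIF3E, EIF4E and the EIF4E copy EIF4EP2 fell and EIF2B5 rose, all by less than 1.5-fold except EIF4EP2, and in the fit described here only at a p unadjusted for the number of genes. Fold changes are from limma on log2(FPKM + 1), a scale that understates the change of low genes. Only genes whose FPKM averaged 0.5 or more across the siRNA libraries were tested. This left 61 of the 70 members, with 2 protein-coding genes (EIF4E3 and EIF4EBP3) and 7 pseudogene entries too low to test. At an unadjusted p of 0.05, 5 of 61 members passed, against 2908 of 13535 genes (21.5%). The study's RNA-seq results also use a p of 0.05, without saying whether it was adjusted. One member of 61 rose, against 16.0% of all genes, and 4 fell, against 5.51%. At a Benjamini-Hochberg adjusted p of 0.05, 0 members passed, against 5 genes in all. The median log2 fold change of the tested members was -0.04, that of all tested genes 0.06.

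Both siUPF1 libraries lay above both siControl libraries in 13 of 61 members (21.3%; 37.5% of all genes) and below them in 18 (29.5%; 18.5% of all genes). In 56 of 61 members (91.8%; 83% of all genes) the 95% interval of the fold change, on the log2(FPKM + 1) scale, lay within 1.5-fold in either direction. With 2 libraries against 2, the smallest p of a two-sided exact permutation test is 0.333, and these calls therefore depend on the variance limma borrows from other genes. Leaving out siControl replicate 2 left 1 call among the members (EIF4EP2; 12.6% of all genes), whereas leaving out siUPF1 replicate 1 gave 23 of 61 (43.7% of all genes), of which 16 passed the adjusted threshold. With siUPF1 replicate 1 left out the spread comes from the siControl libraries alone, and the lone siUPF1 library is assumed to vary like them. With median centring 1 member rose and 10 fell (21.2% of all genes called), and with quantile normalization 2 rose and 9 fell (20.9%). After correction of each library for its trend with GC content and transcript length 3 rose and 12 fell (24%). Without an FPKM minimum, of 70 members 4 rose and 3 fell (17.9%), and EIF4EP2 no longer passed. Beside EIF2B5, the rises were in entries of very low level. Means in siControl and siUPF1 were 0.0332 and 0.157 FPKM for EIF2S2P3, 0.0194 and 0.122 for EIF4EBP3, and 0.524 and 0.703 for EIF5AP4. Without siUPF1 replicate 2 the median log2 fold change of the members was -0.003, against 0.06 for all genes.

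The change with the lowest p was in eIF2B, the exchange factor that reloads eIF2. EIF2B1, the alpha subunit (chr12:124104953-124118313 on GRCh37, the assembly also called hg19), was at 23.7 and 24.8 FPKM in siControl and at 19 and 18 FPKM in siUPF1. The groups did not overlap, and the fall of 0.37 on the log2 scale (standard error 0.09) passed the unadjusted threshold in limma, with an adjusted p = 0.108. Without siControl replicate 2 it was -0.34 and no longer passed. EIF2B5, the catalytic epsilon subunit (chr3:183852826-183863915), went the other way, from 15.6 and 16.7 FPKM to 19.3 and 19.3 FPKM. This rise of 0.24 (log2, standard error 0.09, adjusted p = 0.195 in limma) no longer passed the unadjusted threshold without siControl replicate 1 (0.20) or replicate 2 (0.29). The ratio of EIF2B1 to EIF2B5 was 1.51 and 1.49 in siControl and 0.986 and 0.932 in siUPF1. In the plasmid experiment this ratio was 1.28 and 1.08 in MYC and 1.14 and 1.13 in MYC-UPF1, between the values of the siRNA groups. The other 3 subunits did not pass, with log2 fold changes of -0.03 for EIF2B3, 0.06 for EIF2B4 and 0.14 for EIF2B2.

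EIF4E (chr4:99800427-99850284, GRCh37) was at 5.19 and 5.63 FPKM in siControl and at 4.55 and 3.54 FPKM in siUPF1. Both depleted libraries were lower, with a change of -0.35 (log2, standard error 0.12) and an adjusted p = 0.176 in limma. In the plasmid experiment EIF4E was at 3.87 to 4.28 FPKM in all 4 libraries, within the range of the siUPF1 libraries and below both siControl libraries. The change in EIF4E rested in part on siUPF1 replicate 2, without which it was -0.21 and did not pass. It did not pass without siControl replicate 2 either (-0.30). EIF4EP2 was at 4.19 and 3.87 FPKM in siControl and at 3.18 and 1.66 FPKM in siUPF1, which limma fitted as -0.59 on the log2 scale (standard error 0.20, adjusted p = 0.17). Without siUPF1 replicate 2 it was -0.27 and without replicate 1 -0.92, and it did not pass when no FPKM minimum was set. Its transcript is 99.4% identical to EIF4E, and whether its fall and that of EIF4E come from shared reads was not tested. The ratio of EIF4EP2 to EIF4E varied from 0.469 to 0.807 between libraries.

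The rest of the cap-binding machinery did not pass the threshold in this fit, although some members gained a call under other settings. EIF4G1, the main scaffold, was at 139 and 147 FPKM in siControl and 134 and 160 FPKM in siUPF1, a log2 fold change of 0.04 with a 95% interval from -0.23 to 0.30. EIF4A1 was at 480 and 498 FPKM and then at 449 and 414 FPKM (log2 fold change -0.18, limma adjusted p = 0.313). Among settings that kept every library, it passed the unadjusted threshold with median centring and with all 8 libraries in one fit. It also passed after the GC and length correction, with or without replicate numbers as a block. Of the EIF4E-binding proteins, EIF4EBP1 was at 75.9 and 74.6 FPKM in siControl and 73.6 and 79.7 FPKM in siUPF1 (0.03), and the groups overlapped. The direction of EIF4EBP1 turned with the processing, to -0.18 after removal of the GC and length trend, where it passed the unadjusted threshold, and that of EIF4G1 went to -0.15. EIF4EBP2 was at 27 and 26.3 FPKM and then at 24.4 and 19.9 FPKM (-0.27, limma adjusted p = 0.24). It passed under the same settings as EIF4A1, with quantile normalization and with an FPKM minimum of 5. It passed too with replicate numbers crossed between the groups as a block. The ratio of EIF4EBP1 to EIF4E was 14.6 and 13.2 in siControl and 16.2 and 22.5 in siUPF1. For the plasmid libraries it was 16 and 17.8 in MYC and 19.5 and 15.3 in MYC-UPF1.

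In eIF3, the scaffold that joins the ribosome to eIF4F, 1 of 14 genes passed (21.5% of all genes), with EIF3CL, a near copy of EIF3C, counted as a gene of its own. EIF3E was at 76.3 and 79.8 FPKM in siControl and at 68.3 and 58.9 FPKM in siUPF1, a fitted log2 change of -0.30 (standard error 0.11, adjusted p = 0.184 in limma). It passed in only 1 of the 4 fits that left out a library, at -0.40 without siUPF1 replicate 1, and was -0.19 without siUPF1 replicate 2, -0.33 without siControl replicate 1 and -0.26 without siControl replicate 2. EIF3E is also known to take part in NMD. EIF3C and EIF3CL passed after the GC and length correction, EIF3J with quantile normalization or median centring, and EIF3A, EIF3B, EIF3G, EIF3H and EIF3J without siUPF1 replicate 1. The remaining subunits ran from -0.18 for EIF3J, a loosely bound subunit, to 0.15 for EIF3A, the largest one. The summed FPKM of the 14 genes was 992 and 1043 in siControl and 989 and 1040 in siUPF1, which overlap.

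None of the eIF2 kinases passed in this fit, although EIF2AK3 and EIF2AK4 were higher in both depleted libraries. EIF2AK3 was at 6.9 and 7.73 FPKM in siControl and 9.2 and 8.34 FPKM in siUPF1 (log2 fold change 0.23, limma adjusted p = 0.244). It passed the unadjusted threshold at 0.24 after the GC and length correction, at 0.23 with replicate numbers, crossed between the groups, as a block, and at 0.30 without siUPF1 replicate 2. EIF2AK4 was at 2.73 and 3.01 FPKM and then at 3.38 and 3.68 FPKM (0.23, limma adjusted p = 0.238), and passed only without siUPF1 replicate 1 (0.28). The siControl and siUPF1 values of EIF2AK1 (-0.01) and EIF2AK2 (-0.05) overlapped. The eIF2 subunits and eIF2-like factors ran from -0.21 for EIF2A, a factor of alternative initiation, to 0.16 for EIF2D, which acts in reinitiation, and the scanning factors from -0.35 for EIF1B to 0.07 for EIF5. EIF1B was at 66.5, 68.3 and 66.2 FPKM in siControl and siUPF1 replicate 1 and at 42 FPKM in siUPF1 replicate 2. EIF5A2, a paralog of EIF5A, was at 2.55 and 2.94 FPKM in siControl and 2.39 and 1.54 FPKM in siUPF1 (-0.35, limma adjusted p = 0.236). It was -0.14 without siUPF1 replicate 2 and -0.56 without siUPF1 replicate 1. Without siControl replicate 1 it was -0.43 and without siControl replicate 2 -0.28. Among settings that kept every library, EIF5A2 passed the unadjusted threshold with quantile normalization, median centring and the GC and length correction (-0.21). It also passed with all 8 libraries in one fit and with the crossed block. EIF6, which keeps the large ribosomal subunit from joining early, was at 148 and 155 FPKM and then at 173 and 165 FPKM (0.15, limma adjusted p = 0.364).

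**Figure D1:**
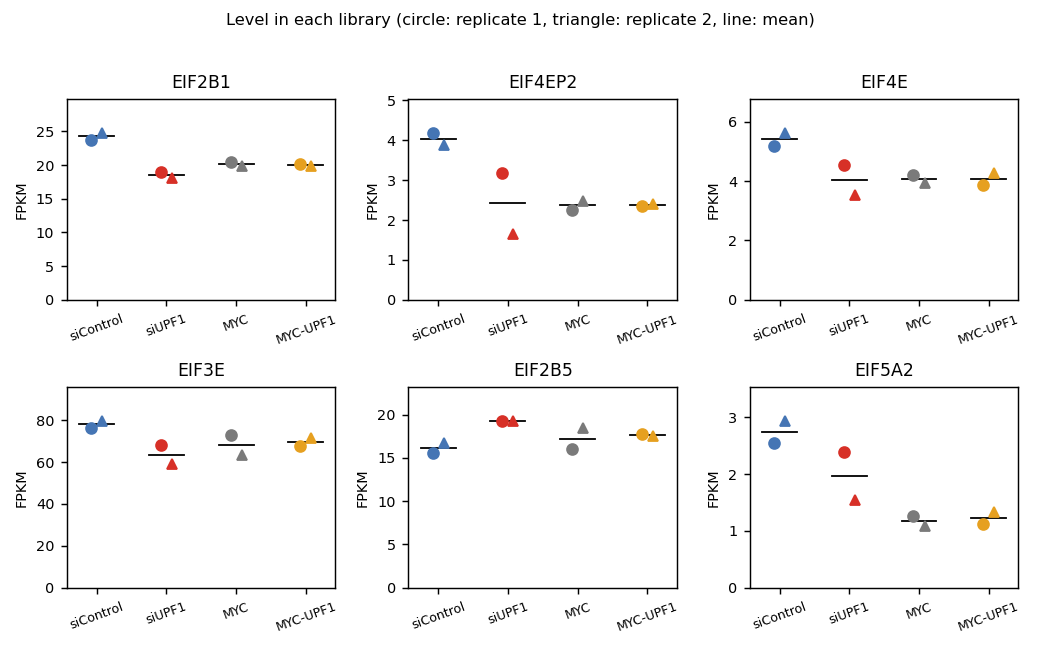
FPKM in each library of the 6 members with full values for depletion (y axis from 0), by group, with circles for replicate 1, triangles for replicate 2 and a line at the mean of the 2 libraries. EIF2B1 falls from 23.7 and 24.8 to 19 and 18 FPKM and EIF2B5 rises from 15.6 and 16.7 to 19.3 in both, whereas EIF4E, EIF4EP2, EIF3E and EIF5A2, of which EIF5A2 did not pass the threshold, are lowest in siUPF1 replicate 2 among the siRNA libraries.

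The siUPF1 replicate 2 library weighed on many members. It held the lowest of the 4 values in 29 of 61 members (47.5%), against 32.7% of all tested genes. The highest value was also in this library for 16 members (26.2%; 37.6% of all tested genes). In siControl replicate 2 lay the highest value of 24 members (39.3%; 26.1% of all tested genes). The part of either library in the changes was not tested beyond leaving it out. The change of a member also went with the base composition of its transcript. Across the 61 tested members, the log2 fold change after depletion correlated with GC content at a Pearson coefficient of 0.471 and a Spearman coefficient of 0.499, and across 12415 genes at 0.539 and 0.565. These points come from the same 4 libraries and are given as a description. EIF4E has a GC content of 34.5%, EIF2B1 44.8% and EIF2B5 52.5%. The 30 members under 46.4% GC had a median log2 fold change of -0.09, against -0.05 for the 5490 genes under that value. The 31 members at or above it had a median of -0.01, against 0.14 for 6925 genes. After the GC and length trend was taken out, the log2 fold changes were -0.36 for EIF2B1, -0.18 for EIF4E, -0.16 for EIF3E and 0.15 for EIF2B5, and all 4 still passed the unadjusted threshold. EIF2B1 then also passed the adjusted one (limma adjusted p = 0.0305, with a range over its alternatives from 0.00186 to 0.463). With the replicate block added to that correction, EIF3E and EIF2B5 did not pass the unadjusted threshold. EIF2B1 passed it there but lost the adjusted call (limma adjusted p = 0.0594).

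After overexpression of UPF1, no initiation factor mRNA passed the threshold. Of 59 members tested, 0 passed the unadjusted limma p of 0.05, against 189 of 13251 genes (1.43%), and 0 the adjusted one. Log2 fold changes ran from -0.12 for EIF6 to 0.12 for EIF2AK3, and the median was 0.00 (all tested genes -0.01). The EIF2AK3 value depended on single libraries, at 0.24 without MYC-UPF1 replicate 1, 0.01 without MYC-UPF1 replicate 2, 0.19 without MYC replicate 1 and 0.06 without MYC replicate 2. On the log2(FPKM + 1) scale the 95% interval of all 59 lay within 1.5-fold in either direction, near the 97.5% of all genes. That scale shrinks the change of low members, and with a pseudocount of 0.1 the pseudogene EIF4BP3 went from 0.12 to 0.31. Both MYC-UPF1 libraries lay above both MYC libraries in 4 members (6.78%; 8.88% of all genes) and below them in 4 (6.78%; 11.8% of all genes). Other settings gave from 0 to 3 calls. EIF3EP3 passed without an FPKM minimum (2.4% of all genes called), EIF4G1 and EIF6 without MYC replicate 1 (5.85%), and EIF4G1, EIF5A and EIF6 with replicate numbers crossed as a block (9.26%). The log2 fold change of EIF4G1 was -0.24 without MYC replicate 1, 0.02 without MYC replicate 2 and -0.01 without MYC-UPF1 replicate 2.

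Among the members whose plasmid groups did not overlap, EIF3C was at 53 and 58.3 FPKM in MYC and 52.6 and 50.3 FPKM in MYC-UPF1 (log2 fold change -0.11), and EIF3K at 110 and 115 and then at 110 and 102 FPKM (-0.08). EIF4A1 was at 426 and 453 FPKM in MYC and 424 and 408 FPKM in MYC-UPF1 (-0.08). The values on the higher side were 22.1 and 21.1 and then 22.3 and 23.1 FPKM for EIF3H (0.07), and 3.1 and 2.99 and then 3.17 and 3.57 FPKM for EIF2AK4 (0.11). EIF4BP3, a pseudogene of EIF4B, was at 0.469 and 0.406 and then at 0.529 and 0.601 FPKM (0.12). EIF4B itself was at 105 and 105 and then at 107 and 110 FPKM (0.04), and EIF2D at 20.6 and 20.3 and then at 20.2 and 20.3 FPKM (-0.02). The gap between the groups was smaller than the distance between the MYC libraries in each of these members except EIF4B. The other eIF2 kinases had log2 fold changes of 0.01 for EIF2AK1, -0.03 for EIF2AK2 and 0.12 for EIF2AK3. EIF4E was at 4.2 and 3.94 FPKM in MYC and 3.87 and 4.28 FPKM in MYC-UPF1, with a log2 fold change of 0.00 and a 95% interval from -0.28 to 0.28. EIF4EBP1 (0.03) and EIF4G1 (-0.11) overlapped between the groups. With a library left out, EIF4EBP1 ran from -0.07 to 0.13, EIF2AK1 from -0.03 to 0.05 and EIF2AK2 from -0.11 to 0.05. EIF3C then ran from -0.18 to -0.04, EIF3K from -0.13 to -0.03 and EIF4A1 from -0.12 to -0.04. On the higher side, EIF3H ran from 0.04 to 0.10 and EIF2AK4 from 0.04 to 0.18.

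Whether depletion and overexpression differed in effect was tested in a single fit over the 8 libraries, with each effect taken against its own control. Of 59 members, 3 passed the unadjusted p, against 15.2% of 13412 genes, and 0 passed the adjusted one. The difference, depletion minus overexpression, was -0.36 for EIF2B1 (standard error 0.12, limma adjusted p = 0.225), -0.59 for EIF4EP2 (standard error 0.25, limma adjusted p = 0.305) and -0.33 for EIF3E (standard error 0.14, limma adjusted p = 0.315). For EIF4E it was -0.35 (limma adjusted p = 0.356) and for EIF2B5 0.21 (limma adjusted p = 0.46), and neither passed the unadjusted threshold, so that neither was shown to respond differently in this fit. EIF4E passed with quantile normalization, with median centring, with the crossed block and without siUPF1 replicate 1. EIF6 had a difference of 0.27 (standard error 0.12, limma adjusted p = 0.329) that fell just outside the unadjusted threshold. It passed without an FPKM minimum, with a minimum of 5, with quantile normalization, with the crossed block, without siUPF1 replicate 2 and without MYC replicate 1. EIF2B1 passed without each of the libraries in turn except siControl replicate 2 (-0.33). With the GC and length trend taken out, EIF3E was -0.15 and EIF4EP2 -0.46 and neither passed. With replicate numbers as a block, EIF2B1 (-0.36) and EIF3E (-0.33) did not pass. Among the fits that left out a library, EIF4EP2 passed only without siUPF1 replicate 1 (-0.92), and EIF3E only without siUPF1 replicate 1 (-0.44) or MYC replicate 1 (-0.43).

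Levels were also set side by side between the siRNA and plasmid experiments. All 4 siRNA libraries were above all 4 plasmid libraries in 17 of 59 members (28.8%; 21.4% of all genes) and below them in 3 (5.08%; 6.96% of all genes), shares near those of all genes. EIF5A2 was highest in ratio, at a mean of 2.35 FPKM in the siRNA libraries and 1.2 FPKM in the plasmid libraries. EIF5B, which joins the ribosomal subunits, was at 42.8 to 49 against 29.4 to 38.2 FPKM, EIF3I at 110 to 120 against 78.6 to 92.6 FPKM, and EIF4A2 at 145 to 175 against 123 to 130 FPKM. All 3 subunits of eIF2, EIF2S1, EIF2S2 and EIF2S3, were on the higher side, at 1.21, 1.25 and 1.15 times the plasmid mean. The 3 on the lower side were EIF4B (88.7 to 95.2 against 105 to 110 FPKM), EIF3L and EIF4H. The reagent, the experiment and the way each table was made cannot be told apart in these gaps, and no test was made.

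The change of members with a TOP-like start can be set beside that of the others, although so few members were called that the groups cannot be compared by their calls. The 10 members with such a start had a median log2 fold change of -0.03 after depletion, with 0 of them past the unadjusted threshold, and the 32 other tested members with a promoter entry a median of -0.04 with 3 past it (21.5% of all genes). After overexpression the medians were -0.02 and -0.03.

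Genes that act on or beside the initiation factors were read for comparison. Of 29 initiation regulators, 4 rose and 3 fell at the unadjusted p after depletion, where 16.0% of all genes rose and 5.51% fell, and 0 passed the adjusted one. DOHH, the hydroxylase that completes the hypusine of eIF5A, was at 9.94 and 8.82 FPKM in siControl and at 13 and 19.4 FPKM in siUPF1, 0.70 higher on the log2 scale (adjusted p = 0.112 in limma). PPP1R15A, which directs a phosphatase to eIF2, rose from 16.6 and 16.4 to 19.5 and 23 FPKM (0.34). RPTOR, a subunit of mTOR complex 1 (0.28), and LARP1, which binds TOP tracts (0.25), also rose. The falls were in ABCE1, a ribosome recycling factor (-0.38), PABPC1, the poly(A)-binding protein (-0.25), and DENR, a reinitiation factor (-0.24). Of 10 genes listed as elongation and termination factors, EEF1E1 fell (-0.47), a gene whose product is better known as part of the tRNA synthetase complex, and none rose. Neither mitochondrial initiation factor passed. After overexpression PPP1R15A alone rose at the unadjusted p among these genes, from 13 and 16.5 to 19.6 and 17.2 FPKM (0.31). It did not pass the adjusted threshold, and 1.43% of all genes were called at the unadjusted p.

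Several members could not be read apart from a copy. EIF3CL differed from EIF3C at 3 of 2910 bases, and the ratio of EIF3C to EIF3CL was 1.03 to 1.07 in all 8 libraries. EIF1AXP1 was 99.5% identical to EIF1AX and EIF5AP4 98.5% identical to EIF5A, with mean levels of 3.79 and 0.441 FPKM. EIF3FP3 was 97.5% identical to EIF3F and was listed at 4.21 FPKM, against 9.66 FPKM for EIF3F. EIF4HP1 was 90.1% identical to EIF4H and was listed at 8.27 FPKM, the highest pseudogene entry. How reads were divided between these copies is not given in the sources used here, so values of copies and of their parents are uncertain.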

How the data were processed

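Huh7 RNA was made into libraries with a stranded mRNA kit. Per the labels and the study's methods, the authors trimmed reads (Trimmomatic 0.38), aligned them (HISAT2 2.1.0), assembled transcripts with StringTie 1.3.4d and deposited FPKM values, 1 for each gene in each library. The study's methods name hg19 as the genome, whereas the submitters' processing notes list both hg19 and mm10. How genes were chosen is not stated. Depth is unknown: the commonest ratio between libraries covered 0.942% of 531 low genes, so whole reads could not be recovered and no count test was run.

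siUPF1 was compared with siControl and MYC-UPF1 with MYC (2 libraries each) in limma 3.58.1 (R 4.3.3) on log2(FPKM + 1), with a mean-variance trend and Benjamini-Hochberg adjustment over all genes tested. The method was tested on simulated data, but no result of that test is given or relied on here. Members given with full values were those past the unadjusted p of 0.05, filled to 6 with the next largest changes without overlap, and the eIF2 kinases, EIF4E, EIF4EBP1 and EIF4G1. The members and lists were chosen with earlier results of these data known. GC content and positions came from GENCODE release 44 on GRCh37 (69 members), promoters from RefSeq, and copies were aligned with edlib 1.3.9.post1. Alternatives were another pseudocount, FPKM minimum or normalization, GC and length removal, a fit over all libraries, blocks and each library left out.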

Additional observations from a re-analysis of the deposited data

How the results depend on the processing

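Depth is unknown, so the counting error of low members could not be set apart from other spread. In parentheses is the share of all genes called under the same setting. For depletion, 5 members passed the unadjusted p (21.5%), and 7 of 70 without an FPKM minimum (17.9%). The count was 11 with quantile normalization (20.9%), 11 with median centring (21.2%), 15 with the GC and length trend removed (24%), 8 with all 8 libraries in one fit (22.7%) and 1 to 23 when a library was left out (10.7% to 43.7%). For overexpression, it was 0 (1.43%), against 1 without an FPKM minimum (2.4%) and 0 to 2 when a library was left out (1.63% to 5.85%). For the difference it was 3 (15.2%), against 7 with quantile normalization (14.4%), 6 without an FPKM minimum (13.5%), 6 with median centring (14%), 5 with GC and length corrected (16.5%) and 0 to 12 when a library was left out (7.94% to 25.2%). The cause of these moves was not tested. The pseudocount, a mean FPKM of at least 5 and the variance model kept each count within 1.5-fold. EIF4EBP1 after depletion turned to -0.18 with the GC and length trend removed, with or without the block. In each depletion alternative the median of members lay below that of all genes, by 0.05 to 0.11 on the log2 scale.

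Replicate numbers did not pair the libraries: same-numbered libraries deviated from their group means with a correlation of -0.129 across genes for depletion and -0.569 for overexpression. With the replicate block, 4 members passed for depletion (19.1%; EIF2B5 did not), 0 for overexpression (1.28%) and 1 for the difference (10.4%; EIF2B1 and EIF3E did not). With the block and the trend removed they were 11 (22.3%), 0 (1.89%) and 6 (13.2%). A crossed pairing, added after seeing the data, gave 8 (22.9%), 3 (9.26%) and 7 (23.8%).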
